A study of Mus musculus with 6 samples.

Results

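The genes described here encode the centromere, the kinetochore, the chromosomal passenger complex and the spindle checkpoint. They were taken from a list of 44 gene names, and each gene was read from the array row whose annotation named that gene alone. All 44 had such a row, 1 each, out of 23410 rows that name at least 1 gene and were tested. RNA was taken from whole brains of embryonic day 16.5 mice, with 3 Tdp2Δ1-3 brains and 3 wild-type brains on 1 Affymetrix Mouse Gene 1.0 ST array each. Tdp2Δ1-3 is named for a deletion of the first to the third exon of Tdp2, the gene of an enzyme that removes trapped topoisomerase II from the ends of DNA breaks. The strain, the sex and the litter of the embryos, and whether the deletion came from the germ line or from a Cre driver, are given in none of the sources used here. The comparison sets brains with the deletion against brains without it.

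Each value is a log2 value centred on the median of its row over the 6 arrays, so it shows how an array stood relative to the others and not the level of a gene. The brain identity of the samples could therefore not be checked against marker levels. Tdp2 itself had -1.05, -0.90 and -0.94 in Tdp2Δ1-3 brains, against 0.90, 1.10 and 1.34 in wild-type brains. It fell by 2.07 ± 0.10 on the log2 scale (SE, n = 3 arrays each), 4.21-fold (limma adjusted p = 0.00035), although probes outside the deleted exons would not test the deletion.

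The kinetochore is the protein assembly that ties each chromosome to spindle microtubules in mitosis. It is built on nucleosomes that hold CENP-A, a variant of histone H3, with an inner layer on centromeric chromatin and an outer layer that binds microtubules. The spindle checkpoint is a set of kinases and adaptor proteins that gather on unattached kinetochores and delay anaphase. Many of these genes are transcribed mainly in G2 and M phase. In the embryonic brain many of the dividing cells are progenitors, some of which line the ventricles. The roles given below are known mostly from human cells and from yeast.

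The promoters of the 4 genes with the largest differences and of the 2 with the smallest are shown here. They differ in the letters searched here for a short element of mitotic genes. Among the other genes those letters did not always go with the size of the difference. The cell cycle genes homology region (CHR) is known as an element bound by the MuvB complexes, which repress or activate genes of G2 and M phase, and CCAAT boxes bound by NF-Y often lie upstream of it. The windows are those of RefSeq on assembly GRCm38.p6, from 250 bases before to 50 bases after the annotated start of transcription, 5′ to 3′ on the strand of the gene. Capitals mark TTTGAA or TTCGAA (CHR), CCAAT, and the E2F forms TTTCCCGC, TTTCGCGC, TTTGCCGC and TTTGGCGC, on either strand. No other form of the CHR was searched, so a window without these letters may still hold one. The 4 largest differences belong to Bub1 (chr2:127831810-127832109, minus strand), Knl1 (chr2:119046869-119047168, plus strand), Bub1b (chr2:118597961-118598260, plus strand) and Cenpa (chr5:30666636-30666935, plus strand), and the 2 smallest to Cenpc1 (chr5:86065534-86065833, minus strand) and Cenpb (chr2:131180018-131180317, minus strand).
Bub1: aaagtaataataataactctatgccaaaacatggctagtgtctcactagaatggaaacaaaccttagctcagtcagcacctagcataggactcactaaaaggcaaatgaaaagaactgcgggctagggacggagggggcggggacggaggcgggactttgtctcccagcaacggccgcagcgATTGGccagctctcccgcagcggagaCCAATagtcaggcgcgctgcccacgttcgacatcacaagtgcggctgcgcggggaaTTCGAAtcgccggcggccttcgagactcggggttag
Knl1: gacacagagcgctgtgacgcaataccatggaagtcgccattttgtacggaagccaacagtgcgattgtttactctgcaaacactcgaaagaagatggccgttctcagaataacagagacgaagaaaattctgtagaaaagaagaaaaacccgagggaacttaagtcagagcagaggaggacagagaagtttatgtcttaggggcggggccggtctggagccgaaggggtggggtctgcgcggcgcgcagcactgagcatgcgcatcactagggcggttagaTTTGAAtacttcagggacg
Bub1b: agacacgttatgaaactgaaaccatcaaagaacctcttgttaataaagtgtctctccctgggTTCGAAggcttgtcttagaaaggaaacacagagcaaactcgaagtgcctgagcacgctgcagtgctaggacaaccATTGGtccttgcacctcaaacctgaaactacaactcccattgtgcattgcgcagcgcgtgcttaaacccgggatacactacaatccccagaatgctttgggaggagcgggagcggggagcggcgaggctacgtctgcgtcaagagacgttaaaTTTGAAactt
Cenpa: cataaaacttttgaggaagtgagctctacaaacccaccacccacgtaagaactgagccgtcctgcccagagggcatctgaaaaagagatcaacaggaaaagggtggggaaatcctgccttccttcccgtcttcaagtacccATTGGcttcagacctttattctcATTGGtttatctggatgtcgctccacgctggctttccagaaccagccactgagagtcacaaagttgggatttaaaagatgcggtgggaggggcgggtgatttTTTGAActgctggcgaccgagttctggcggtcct
Cenpc1: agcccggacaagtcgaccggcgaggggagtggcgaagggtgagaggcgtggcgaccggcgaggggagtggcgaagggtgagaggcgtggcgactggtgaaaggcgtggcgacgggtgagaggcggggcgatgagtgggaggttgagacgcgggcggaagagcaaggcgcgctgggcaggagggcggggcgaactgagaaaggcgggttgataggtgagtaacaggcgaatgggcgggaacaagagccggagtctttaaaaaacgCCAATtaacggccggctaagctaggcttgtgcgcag
Cenpb: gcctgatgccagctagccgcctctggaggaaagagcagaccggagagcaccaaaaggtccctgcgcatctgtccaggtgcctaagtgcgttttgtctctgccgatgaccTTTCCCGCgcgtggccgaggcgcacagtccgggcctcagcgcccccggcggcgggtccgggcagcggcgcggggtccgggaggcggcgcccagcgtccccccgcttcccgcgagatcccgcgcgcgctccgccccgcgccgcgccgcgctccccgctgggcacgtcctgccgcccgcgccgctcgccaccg
With 1 as the first base of the transcript, the CHR letters began at position 15 in Bub1, at 32 in Knl1, at 17 in Cenpa, and at -188 and 41 in Bub1b. The windows of Cenpc1 and Cenpb held none. Among genes not shown, the window of Cenpe (difference 0.58) held none either, and that of Cenpw (0.16) held them. Cenpc1 held a CCAAT at position 15, and Cenpb held E2F letters at position -141 and no CCAAT.

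All 44 genes had a positive difference, Tdp2Δ1-3 minus wild type. The differences ran from 0.04 for Cenpb to 0.78 for Bub1 on the log2 scale, with a median of 0.35, whereas the median over all 23410 rows was 0.0135. At an adjusted p under 0.05 in limma's moderated test, 27 of the 44 rose (61.4%), beside 2.34% of all rows. None of the 44 was called lower by limma at an adjusted p under 0.05, beside 4.13% of all rows. None of the 44 was lower in limma at an unadjusted p under 0.05 either, and the share of all rows that were was not counted. Without the adjustment 39 of the 44 were higher at p under 0.05, and 10.0% of all rows were. Bub1, Knl1, Bub1b and Cenpa passed with a fold of at least 1.5, which 0.188% of all rows did. In 35 of the 44 (79.5%) every Tdp2Δ1-3 array lay above every wild-type array, beside 13.1% of all rows. These 35 were the 27 that rose and 8 of the 17 that did not pass. In whole-brain RNA, more cells of a type and more RNA per cell cannot be told apart. With 3 arrays per genotype the SE of a difference ran from 0.04 to 0.13.

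**Figure D1:**
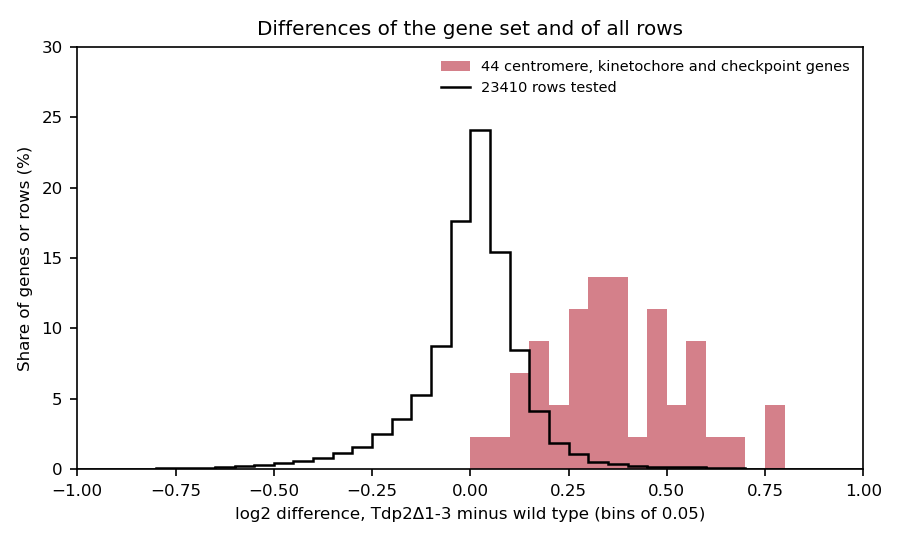
Share of the 44 genes (filled) and of all 23410 rows tested (outline) by log2 difference, Tdp2Δ1-3 minus wild type, in bins of 0.05. All 44 genes lie to the right of 0, with a median of 0.35, and the median of all rows is 0.0135.

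Marker genes of dividing cells and of intermediate progenitors moved with the genotype too, and those of radial glia were mixed. Over all rows, 2.34% were called higher and 4.13% lower in limma at an adjusted p under 0.05. At an unadjusted p under 0.05 in limma, 10.0% of all rows were higher. Of 12 measured markers of cycling cells that are not among the 44, such as Mki67 and Top2a, all 12 rose. Their mean over the list lay between 0.16 and 0.29 on the Tdp2Δ1-3 arrays and between -0.39 and -0.18 on the wild-type arrays. Of 7 markers of intermediate progenitors 6 rose, and their list mean lay between 0.18 and 0.27 on Tdp2Δ1-3 arrays and between -0.34 and -0.13 on wild-type arrays. Of 9 markers of radial glia, the stem cells of the embryonic brain, 3 rose (Nes, Vim and Prom1) and 6 did not pass. Of all 9, 6 had a positive difference and Slc1a3 (-0.26), Fabp7 (-0.08) and Hes5 (-0.07) a negative one. At an unadjusted p under 0.05 in limma, 5 were higher and 1, Slc1a3, was lower. The radial glia list means ran from -0.02 to 0.11 on Tdp2Δ1-3 arrays and from -0.15 to -0.05 on wild-type arrays. Of 12 markers of postmitotic neurons 5 fell (Snap25, Syp, Syn1, Syt1 and Gap43), with list means from -0.34 to -0.03 on Tdp2Δ1-3 arrays and from 0.05 to 0.14 on wild-type arrays. Among 6 markers each, 2 of astrocytes, 2 of the oligodendrocyte lineage, 1 of endothelium and pericytes and 2 of meninges fell, and none of microglia or choroid plexus passed in limma, where 1 of each was higher at an unadjusted p under 0.05. Of 6 measured red cell markers 2 rose, the embryonic globin genes Hbb-y by 3.79 and Hba-x by 1.44. Whether any defining marker was at 0 cannot be read from centred values. The part of these cell types in the differences of the 44 genes was not tested.

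The arrays of each genotype were not evenly spread. Over the 44 genes the centred log2 values averaged 0.0881, 0.222 and 0.249 on Tdp2Δ1-3 arrays 1, 2 and 3, against -0.284, -0.148 and -0.108 on wild-type arrays 1, 2 and 3. Tdp2Δ1-3 array 1 was the lowest of its genotype for 32 of the 44 genes, and wild-type array 1 was the lowest of its genotype for 35. Where the genotypes do not overlap, the lowest Tdp2Δ1-3 value and the highest wild-type value mirror each other about 0, because a row is centred on the mean of its 2 middle values.

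**Figure D2:**
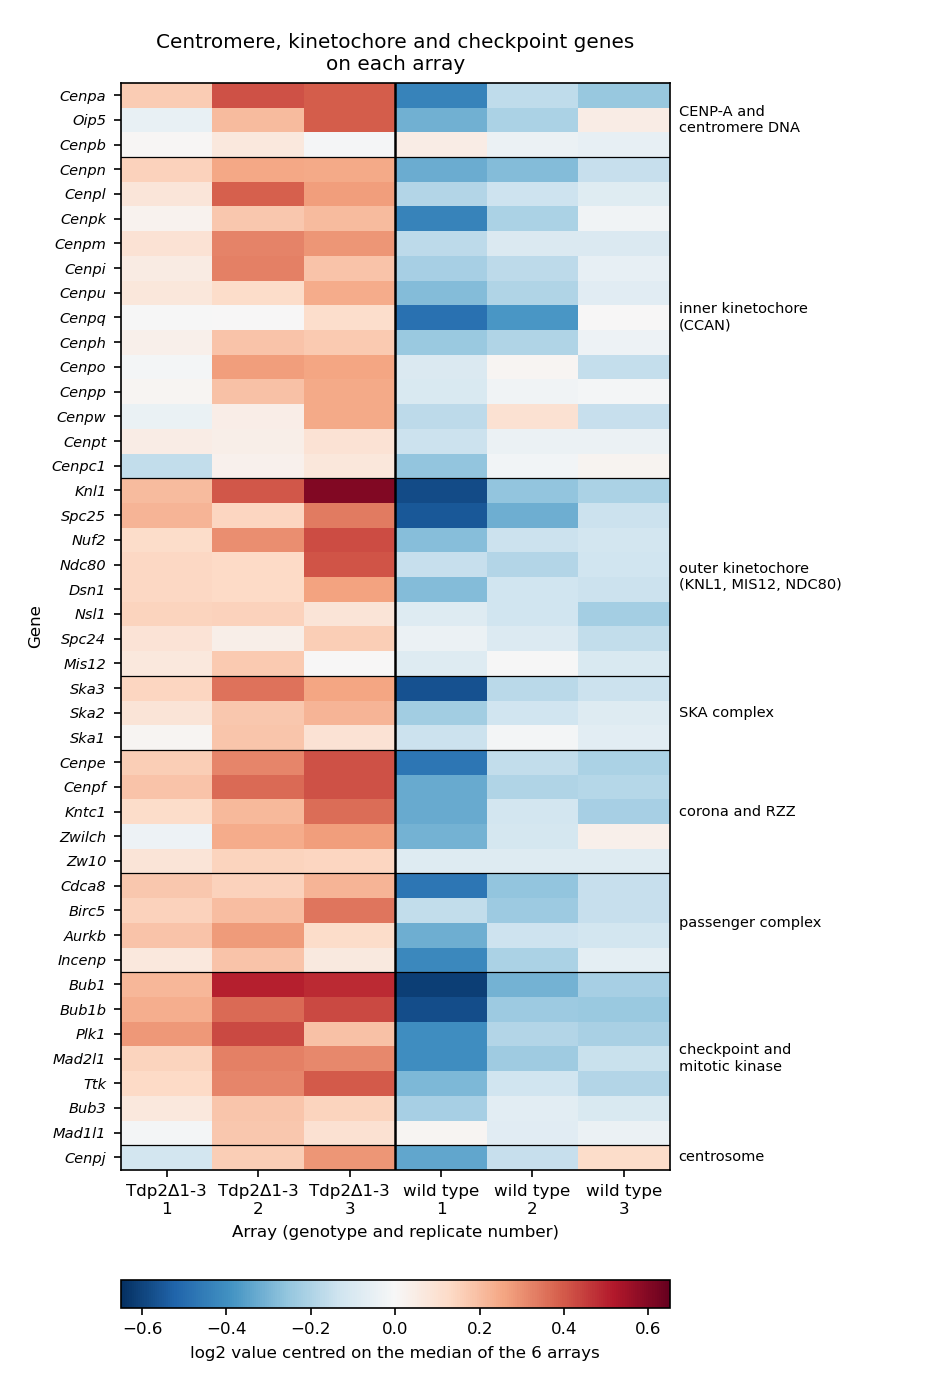
Centred log2 value (colour scale) of each of the 44 genes (rows, grouped by role) on each array (columns, Tdp2Δ1-3 left, wild type right). Tdp2Δ1-3 array 1 is the palest of its genotype, with a mean of 0.0881 over the genes, and wild-type array 1 the darkest blue, with a mean of -0.284.

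The spindle checkpoint held the widest range of differences. Of the 7 genes of the checkpoint and its mitotic kinases 6 rose and Mad1l1 did not pass, with a median difference of 0.52. Bub1 encodes a checkpoint kinase that also marks centromeric chromatin for the passenger complex. Its values were 0.21, 0.50 and 0.49 in Tdp2Δ1-3 brains, against -0.61, -0.31 and -0.21 in wild-type brains. The genotypes did not overlap, and Bub1 rose by 0.78 ± 0.12 on the log2 scale (SE, n = 3 arrays each), 1.72-fold (limma adjusted p = 0.0112). Bub1b encodes BubR1, part of the complex that inhibits the anaphase-promoting complex. It had 0.24, 0.37 and 0.43 in Tdp2Δ1-3 brains, against -0.57, -0.24 and -0.24 in wild-type brains, with wild-type array 1 well below the others. Bub1b rose by 0.70 ± 0.10, 1.62-fold (limma adjusted p = 0.0104).

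Plk1, a kinase of mitotic entry and of attachment to the spindle, had 0.28, 0.43 and 0.19 in Tdp2Δ1-3 brains, against -0.41, -0.19 and -0.21 in wild-type brains. It rose by 0.57 ± 0.08 on the log2 scale, 1.48-fold (limma adjusted p = 0.0103), just under the 1.5-fold limit. Mad2l1 encodes MAD2, the checkpoint protein that binds and holds CDC20. Its values were 0.15, 0.33 and 0.31 in Tdp2Δ1-3 brains, against -0.40, -0.23 and -0.15 in wild-type brains, without overlap. Mad2l1 rose by 0.52 ± 0.08, 1.44-fold (limma adjusted p = 0.0113). Ttk, the MPS1 kinase that starts checkpoint signalling, rose by 0.49 ± 0.08 (limma adjusted p = 0.0132). Bub3, the adaptor that carries Bub1 and BubR1 to the kinetochore, rose by 0.26 ± 0.06 (limma adjusted p = 0.0333). Mad1l1 encodes MAD1, the kinetochore anchor of MAD2. It had -0.01, 0.17 and 0.10 in Tdp2Δ1-3 brains, against 0.01, -0.08 and -0.04 in wild-type brains, and wild-type array 1 lay above Tdp2Δ1-3 array 1. Its difference was 0.12 ± 0.06 (limma adjusted p = 0.284). Whether Mad1l1 and Mad2l1 differ in their response was not tested.

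In the outer kinetochore, 6 of 8 genes of the KNL1, MIS12 and NDC80 complexes rose, with a median difference of 0.37, and the genotypes did not overlap in any of the 8. Knl1 encodes the scaffold that recruits Bub1, BubR1 and Bub3. Its values were 0.20, 0.40 and 0.60 in Tdp2Δ1-3 brains, against -0.58, -0.26 and -0.20 in wild-type brains. Tdp2Δ1-3 array 3 and wild-type array 1 were the extremes, and Knl1 rose by 0.75 ± 0.12 on the log2 scale (SE, n = 3 arrays each), 1.68-fold (limma adjusted p = 0.015). The 4 genes of the NDC80 complex, the rod that binds the microtubule, had differences from 0.19 to 0.57. Spc25, at the inner end of the rod, had 0.22, 0.14 and 0.34 in Tdp2Δ1-3 brains, against -0.55, -0.32 and -0.14 in wild-type brains. It rose by 0.57 ± 0.10 (limma adjusted p = 0.0196), with wild-type array 1 the lowest. Nuf2, which pairs with Ndc80 at the microtubule end, had 0.12, 0.30 and 0.42 in Tdp2Δ1-3 brains, against -0.28, -0.14 and -0.12 in wild-type brains. It rose by 0.46 ± 0.08 (limma adjusted p = 0.019).

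Ndc80 had 0.14, 0.13 and 0.41 in Tdp2Δ1-3 brains, against -0.15, -0.19 and -0.13 in wild-type brains. Tdp2Δ1-3 array 3 stood apart above the other arrays, and Ndc80 rose by 0.38 ± 0.08 (limma adjusted p = 0.0289). Spc24, the partner of Spc25, had a difference of 0.19 ± 0.05 that did not pass (limma adjusted p = 0.0731). The MIS12 complex joins the inner kinetochore to KNL1 and NDC80. Of its genes Dsn1 rose by 0.36 ± 0.06 (limma adjusted p = 0.0161) and Nsl1 by 0.27 ± 0.05 (limma adjusted p = 0.0211). Mis12 had 0.07, 0.17 and 0.00095 in Tdp2Δ1-3 brains, against -0.08, -0.00095 and -0.10 in wild-type brains, so that Tdp2Δ1-3 array 3 and wild-type array 2 nearly touched. Its difference of 0.14 ± 0.06 did not pass (limma adjusted p = 0.193).

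The SKA complex helps the kinetochore hold the end of a shortening microtubule, and 2 of its 3 genes rose. Ska3 had 0.14, 0.35 and 0.26 in Tdp2Δ1-3 brains, against -0.57, -0.17 and -0.14 in wild-type brains. Wild-type array 1 lay far below the other arrays, and Ska3 rose by 0.54 ± 0.11 on the log2 scale (SE, n = 3 arrays each, limma adjusted p = 0.032). Ska2 had 0.08, 0.18 and 0.22 in Tdp2Δ1-3 brains, against -0.23, -0.13 and -0.08 in wild-type brains. The genotypes did not overlap, and Ska2 rose by 0.31 ± 0.06 (limma adjusted p = 0.0213). Ska1 had 0.01, 0.18 and 0.09 in Tdp2Δ1-3 brains, against -0.14, -0.01 and -0.07 in wild-type brains, and its difference of 0.17 ± 0.06 did not pass (limma adjusted p = 0.128).

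The corona is the outermost layer of unattached kinetochores, and 4 of the 5 genes of the corona and its dynein adaptor rose, with a median difference of 0.45. Cenpe, a kinesin that carries chromosomes toward the spindle equator, had 0.16, 0.32 and 0.42 in Tdp2Δ1-3 brains, against -0.47, -0.16 and -0.21 in wild-type brains. It rose by 0.58 ± 0.10 on the log2 scale (SE, n = 3 arrays each), 1.49-fold (limma adjusted p = 0.0151). Cenpf, the gene of a large coiled-coil protein of the corona, had 0.19, 0.37 and 0.41 in Tdp2Δ1-3 brains, against -0.33, -0.19 and -0.19 in wild-type brains. The genotypes did not overlap, and Cenpf rose by 0.56 ± 0.07 (limma adjusted p = 0.00794). Kntc1 encodes rod, which forms with Zwilch and ZW10 the complex that brings dynein to the kinetochore. Kntc1 had 0.12, 0.21 and 0.36 in Tdp2Δ1-3 brains, against -0.33, -0.12 and -0.21 in wild-type brains and rose by 0.45 ± 0.08 (limma adjusted p = 0.0163). Zw10, which also acts in membrane traffic outside mitosis, had 0.08, 0.14 and 0.14 in Tdp2Δ1-3 brains, against -0.08, -0.08 and -0.08 in wild-type brains. The 3 wild-type values were nearly equal, and Zw10 rose by 0.20 ± 0.04 (limma adjusted p = 0.0282), the smallest rise among the 27. Zwilch had a larger difference, 0.29 ± 0.11, that did not pass (limma adjusted p = 0.154), and its genotypes overlapped.

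The chromosomal passenger complex corrects faulty attachments, and 3 of its 4 genes rose, with a median difference of 0.40 and no overlap in any of the 4. Cdca8, the gene of borealin, had 0.17, 0.15 and 0.22 in Tdp2Δ1-3 brains, against -0.47, -0.25 and -0.15 in wild-type brains. It rose by 0.47 ± 0.08 on the log2 scale (SE, n = 3 arrays each, limma adjusted p = 0.0156), with the Tdp2Δ1-3 arrays closer together than the wild-type arrays. Birc5, the gene of survivin, had 0.15, 0.20 and 0.35 in Tdp2Δ1-3 brains, against -0.16, -0.24 and -0.15 in wild-type brains. Birc5 rose by 0.41 ± 0.06 (limma adjusted p = 0.0112). Aurkb, the gene of the kinase Aurora B, had 0.19, 0.28 and 0.12 in Tdp2Δ1-3 brains, against -0.32, -0.13 and -0.12 in wild-type brains. Tdp2Δ1-3 array 2 was the highest, and Aurkb rose by 0.38 ± 0.07 (limma adjusted p = 0.0179). Incenp, the gene of the scaffold that activates Aurora B, had 0.07, 0.19 and 0.06 in Tdp2Δ1-3 brains, against -0.42, -0.21 and -0.06 in wild-type brains. Its difference of 0.33 ± 0.09 did not pass (limma adjusted p = 0.0637), with wild-type arrays 1 and 3 far apart.

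At the base of the kinetochore, Cenpa and Cenpb had the largest and the smallest difference of the 3 genes of CENP-A nucleosomes and centromere DNA. Cenpa, the gene of CENP-A itself, had 0.16, 0.41 and 0.39 in Tdp2Δ1-3 brains, against -0.44, -0.16 and -0.25 in wild-type brains. The genotypes did not overlap, and Cenpa rose by 0.61 ± 0.09 on the log2 scale (SE, n = 3 arrays each), 1.52-fold (limma adjusted p = 0.0112). Cenpb, the gene of a protein that binds a motif of centromeric satellite DNA, had 0.0065, 0.07 and -0.0065 in Tdp2Δ1-3 brains, against 0.05, -0.04 and -0.05 in wild-type brains. Wild-type array 1 lay above Tdp2Δ1-3 arrays 1 and 3, and the difference was 0.04 ± 0.05 (limma adjusted p = 0.722). Oip5 encodes a protein that helps prepare centromeres for new CENP-A. Its difference of 0.34 ± 0.12 did not pass (limma adjusted p = 0.156), and its genotypes overlapped.

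The constitutive inner kinetochore network (CCAN) stays on centromeres through the cell cycle. Of its 13 genes 5 rose and 8 did not pass, with a median difference of 0.33. Cenpn, whose product binds the CENP-A nucleosome, had 0.15, 0.25 and 0.24 in Tdp2Δ1-3 brains, against -0.32, -0.28 and -0.15 in wild-type brains. It rose by 0.47 ± 0.06 on the log2 scale (SE, n = 3 arrays each), 1.38-fold, with the lowest adjusted p of the 44 genes (limma adjusted p = 0.00749). Cenpl, whose product pairs with that of Cenpn, had 0.08, 0.39 and 0.27 in Tdp2Δ1-3 brains, against -0.19, -0.14 and -0.08 in wild-type brains. Tdp2Δ1-3 array 1 was the lowest of its genotype, and Cenpl rose by 0.38 ± 0.08 (limma adjusted p = 0.0295). Cenpm, a subunit of the same subcomplex as Cenpi, Cenph and Cenpk, had 0.09, 0.32 and 0.28 in Tdp2Δ1-3 brains, against -0.17, -0.10 and -0.09 in wild-type brains. It rose by 0.35 ± 0.07 (limma adjusted p = 0.0216).

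Cenpi had 0.05, 0.33 and 0.19 in Tdp2Δ1-3 brains, against -0.22, -0.17 and -0.05 in wild-type brains. It rose by 0.34 ± 0.08 (limma adjusted p = 0.0424), the highest adjusted p among the 27. Cenpu, a subunit of the network that docks Plk1, rose by 0.33 ± 0.07 (limma adjusted p = 0.0298). Just outside the threshold lay Cenph, with a difference of 0.29 ± 0.07 (limma adjusted p = 0.0505), and farther out Cenpk, with 0.36 ± 0.10 (limma adjusted p = 0.0785). Cenpq, Cenpo and Cenpp had differences of 0.33, 0.25 and 0.19 and did not pass. Cenpw and Cenpt encode histone-fold proteins of the network, and their differences of 0.16 and 0.13 did not pass. Cenpc1 encodes CENP-C, which links the CENP-A nucleosome to the MIS12 complex. It had -0.16, 0.03 and 0.08 in Tdp2Δ1-3 brains, against -0.26, -0.02 and 0.02 in wild-type brains, with Tdp2Δ1-3 array 1 below wild-type arrays 2 and 3. Its difference was 0.07 ± 0.09 (limma adjusted p = 0.738), and it was -0.018 without wild-type array 1.

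Cenpj carries a centromere name but encodes a centrosomal protein that sets the length of centrioles. It had -0.12, 0.16 and 0.29 in Tdp2Δ1-3 brains, against -0.34, -0.15 and 0.12 in wild-type brains, and wild-type array 3 lay above Tdp2Δ1-3 array 1. Its difference of 0.23 ± 0.13 had the largest SE of the 44 and did not pass (limma adjusted p = 0.371).

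**Figure D3:**
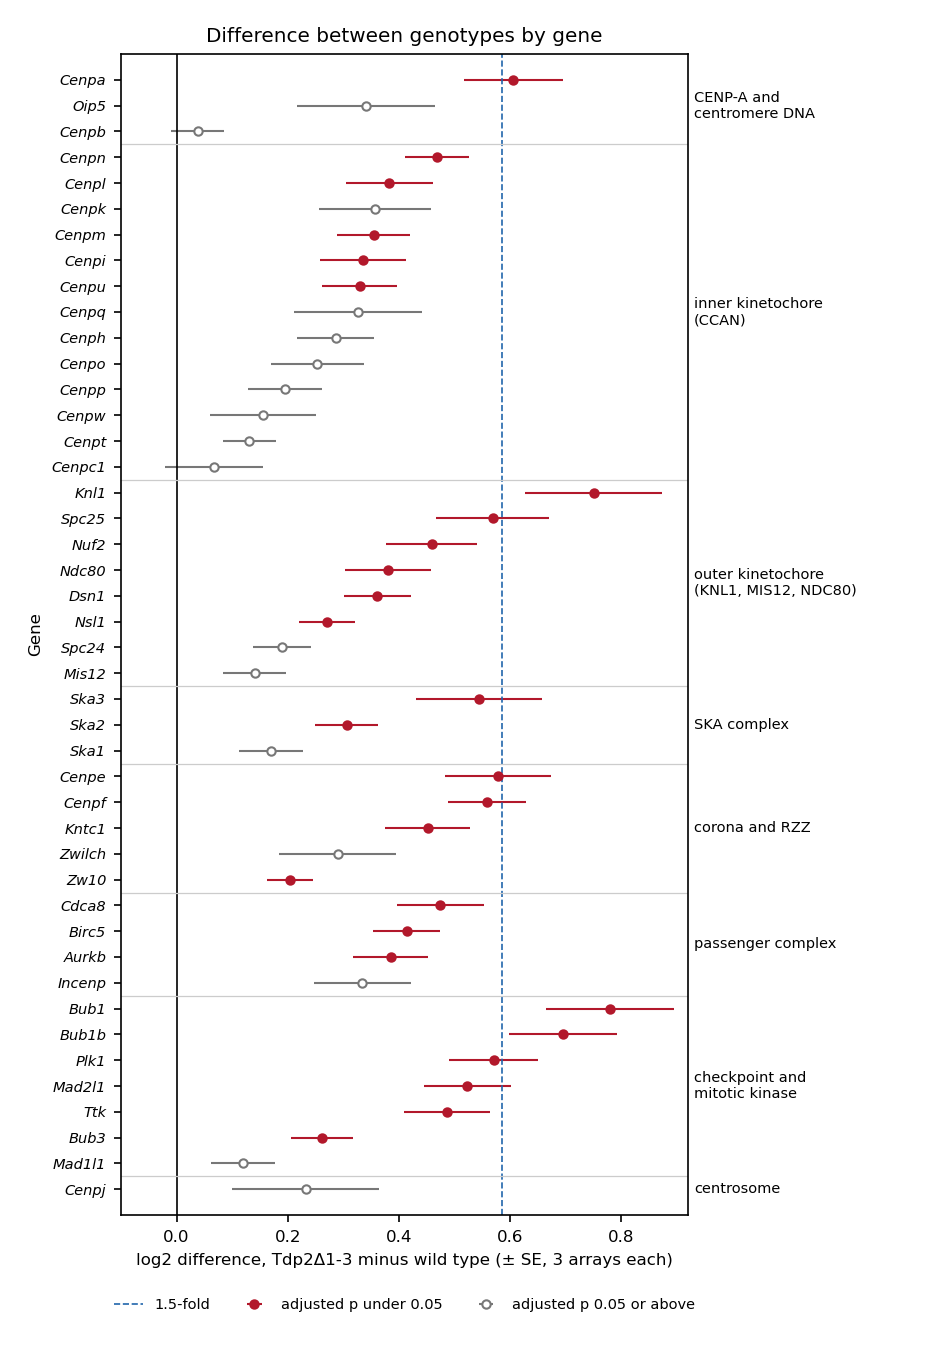
Log2 difference, Tdp2Δ1-3 minus wild type (x axis), with its SE, for each of the 44 genes (y axis, grouped by role), from 3 arrays per genotype. Filled points are the 27 genes at an adjusted p under 0.05, open points the other 17, and 4 genes lie beyond the dashed line at 1.5-fold.

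The number of genes that passed depended on the arrays in the fit. With each array left out in turn, the median difference of the 44 genes lay between 0.30 and 0.40. Without Tdp2Δ1-3 array 2 none passed in limma, beside 0.137% of all rows called higher. In that limma fit 33 of the 44 were higher at an unadjusted p under 0.05, beside 6.22% of all rows. The median difference of all 44 was then 0.33. Without wild-type array 2 there were 9 that passed (beside 0.504% of all rows), without Tdp2Δ1-3 array 3 there were 13 (beside 0.842%), and without wild-type array 1 there were 18 (beside 1.14%). Without wild-type array 3 there were 27 (beside 1.82%), and without Tdp2Δ1-3 array 1 there were 32 (beside 3.68%). Calls over the whole array thus moved with those of the 44 genes, and the share with all arrays was 2.34%. Bub1, Bub1b, Plk1, Ttk, Cenpa, Cenpf, Cenpn and Kntc1 passed in 5 of the 6 fits and lost their calls without Tdp2Δ1-3 array 2. No gene passed in all 6, and 9 passed in none. The 4 genes past 1.5-fold became 0 without Tdp2Δ1-3 array 2 (beside 0.0427% of all rows), 2 without wild-type array 1 (beside 0.0982%), 7 without Tdp2Δ1-3 array 1 (beside 0.359%) and 8 without wild-type array 3 (beside 0.333%).

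**Figure D4:**
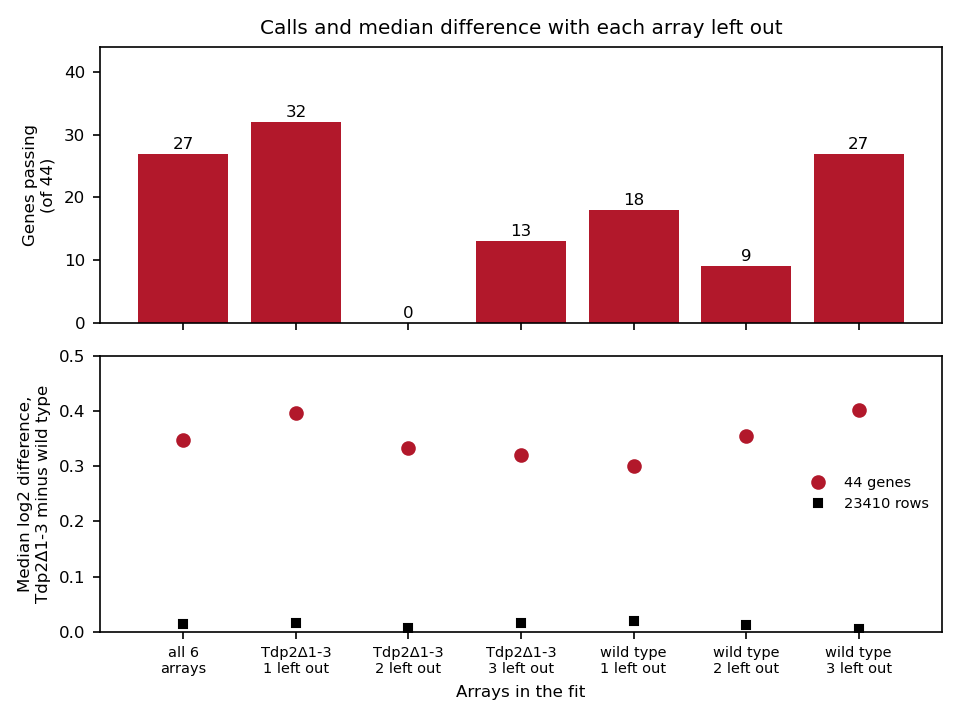
Top, number of the 44 genes at an adjusted p under 0.05 (bars), and bottom, median log2 difference, Tdp2Δ1-3 minus wild type, of the 44 genes (circles) and of 23410 rows (squares), with all 6 arrays and with each left out. The bars run from 0 to 32, and the circles stay between 0.30 and 0.40.

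Of the 44 genes 38 had a RefSeq promoter window. CHR letters were found in 19 of the 38 (50%), beside 19.0% of 15563 genes of the array and 21.7% of all 27025 genes with a window. Of the 25 with a window that rose, 17 held the letters (68.0%), and of the 13 that did not pass, 2 did (15.4%), Oip5 and Cenpw. The median log2 difference was 0.47 over the 19 genes with the letters and 0.31 over the 19 without. Among those without, Cenpe, Mad2l1, Nuf2 and Birc5 rose by more than 0.4 on the log2 scale. CCAAT was found in 24 of the 38 (63.2%), beside 41.7% of the array genes and 41.1% of all genes with a window. CHR letters with CCAAT were found in 15 (39.5%), beside 7.7% of the array genes and 8.61% of all genes with a window. A CHR match and a CCAAT match shared 1 base in Cenpw, Kntc1 and Cdca8. E2F letters were found in 4 of the 38, Cenpb, Cenpl, Cenpm and Dsn1 (10.5%). They were found in 3.48% of the array genes and 2.60% of all genes with a window. Of the 344 other array genes called higher, 28.2% held CHR letters, 54.9% CCAAT, 18.6% both of these and 12.8% E2F letters. A gene with several windows was counted if any of them held the letters, and a match of letters does not show that a factor binds there. These shares were not tested.

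**Figure D5:**
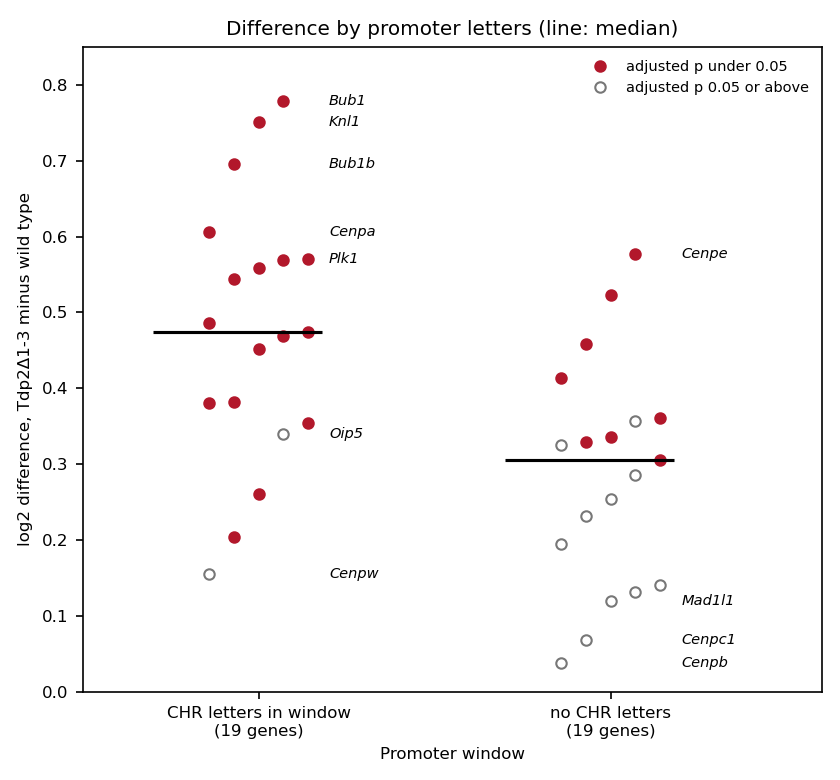
Log2 difference, Tdp2Δ1-3 minus wild type (y axis), of the 38 genes with a promoter window, split into 19 with and 19 without CHR letters (x axis). Filled points passed at an adjusted p under 0.05, open points did not, and the lines are the medians of 0.47 with and 0.31 without the letters.

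Other genes of chromosome segregation, 66 measured of 69 listed, had a median difference of 0.16 on the log2 scale. Of these 21 rose (31.8%), beside 2.34% of all rows, and 45 did not pass. None fell at an adjusted p under 0.05 in limma, beside 4.13% of all rows. At an unadjusted p under 0.05 in limma 36 were higher, beside 10.0% of all rows, and 2 were lower. Spindle assembly genes rose in 14 of 15 cases, with a median of 0.56. The mitotic kinesin gene Kif2c rose by 0.70, Nusap1, whose product bundles spindle microtubules, by 0.69 and Hmmr, whose product acts at spindle poles, by 0.62. Of 21 genes of the anaphase-promoting complex, its partners and separase, 4 rose. Cdc20, the activator that the checkpoint holds, rose by 0.50, Ube2c, the ubiquitin-conjugating enzyme of the complex, by 0.40, Espl1, the gene of separase, by 0.26 and the subunit gene Cdc26 by 0.21. Of 12 cohesin genes, Esco2, an acetyltransferase of replicated cohesin, rose by 0.68 and 11 did not pass. Of 10 further kinetochore genes Nde1, a dynein regulator that neural progenitors need to divide, rose by 0.38. Its paralog Ndel1 had a difference of -0.21 (limma adjusted p = 0.0526), and Zwint, which binds KNL1, had -0.17 (limma adjusted p = 0.165). Of 8 further genes of the inner centromere and of CENP-A loading, Sgo2a, a shugoshin that guards centromeric cohesion, rose by 0.42 and 7 did not pass. Sgo1 had a larger difference of 0.53 (limma adjusted p = 0.0509).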

How the data were processed

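The authors deposited log2 values made with RMA, the Robust Multi-Array Average, as the series text states. Affymetrix Expression Console is named, with no version, in the submitters' processing notes. The table states no log base, and log2 is taken from RMA. Each row has a median of 0, within 5e-07, across its 6 arrays. Such centring leaves no levels, so no filter on low values was possible. The genome build is not given in the sources used here, nor is the probe summary.

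Of 28856 rows, the 23410 that name at least 1 gene were tested, with symbols updated through a RefSeq table of GRCm38.p6. Genotypes and replicate numbers came from the sample titles. Tdp2Δ1-3 was set against wild type with limma 3.58.1 (lmFit and eBayes, two-sided) in R 4.3.3, with Benjamini-Hochberg adjustment over all 23410 rows. Errors are limma's moderated standard errors. The 1.5-fold limit and the corrected p of 0.05 are those of the series text. The steps were tested on simulated data with independent noise and no row centring. That test does not cover effects that genes share on an array. Whether the 3 embryos of a genotype came from separate litters is not given here, and p-values measure only the spread between these samples.

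The members and the role, pathway and marker lists were chosen with earlier results of these data known. Values of every array were printed for Tdp2 and, per role, for the 4 genes called with the largest differences and the gene with the smallest. Of each pathway list the 3 genes called with the largest differences were named. Cdc26, Ndel1, Zwint and Sgo1 were named after their values were seen. Some listed genes were not analysed here. Promoter letters were searched on both strands of 32851 RefSeq windows of 300 bases, and 6 of the 44 genes matched none (Nsl1, Spc24, Ska1, Zwilch, Aurkb and Incenp). Alternatives were the replicate block, each array left out, all 28856 rows, 1 row per gene and the mean of all single-gene rows. Others were equal array medians, cyclic loess, array weights, a robust variance prior, a plain two-sided t-test over 23410 rows and limma's treat against 1.2-fold.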

Additional observations from a re-analysis of the deposited data

How the results depend on the processing

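Across 16 alternatives none of the 44 genes was called lower, and their median difference stayed between 0.30 and 0.40. The 27 genes called higher became 38 with array weights (beside 11.3% of all rows), 0 by the plain t-test after adjustment and 0 by treat against 1.2-fold. Of all 23410 rows the t-test called 0 higher and treat called 3 (0.0128%). At an unadjusted p under 0.05 the t-test called 32 of the 44 higher, beside 8.35% of all rows, and treat 16, beside 0.816%. The 4 genes past 1.5-fold became 0 by the t-test and 0 by treat. The 21 pathway genes called became 38 with array weights (37 of them higher), 0 by the t-test and 0 by treat. With each array left out, the counts ran from 0 to 32 for genes called higher, from 0 to 8 past 1.5-fold and from 1 to 26 for pathway genes called, lowest without Tdp2Δ1-3 array 2 in each case. The cause was not tested. Cenpc1 had 0.07 with all arrays and turned to -0.018 without wild-type array 1, the lowest value with 1 array left out, the highest being 0.14 without Tdp2Δ1-3 array 1. Cenpq had 0.33 in the main fit (limma adjusted p = 0.145). With cyclic loess it had 0.77 and passed (limma adjusted p = 0.0465). Over the single genes and alternatives, 545 values kept direction and side of the threshold, 127 lost the call, 31 gained it and 1 turned. The mean of all single-gene rows changes no gene's own value, because each had 1 row.

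The series text speaks of pairs of brains without saying what a pair shares or that a number marks it. Deviations of same-numbered arrays from their genotype means correlated at 0.21, 0.05 and 0.20 over all rows. For differently numbered arrays of different genotype the correlations ran from -0.22 to 0.06. Whether the numbers mark pairs was not tested, and the main fit did not use them. With the replicate number as a block, 34 of the 44 genes were called higher, beside 3.86% of all rows, and 27 pathway genes were called, 26 of them higher.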
